A study of Mus musculus with 10 samples.

Results

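The Rhox genes form a cluster of reproductive homeobox genes on the mouse X chromosome. Members were the probes of a mouse expression array whose gene name is Rhox1, Rhox2a, Rhox3a, Rhox4b, Rhox5, Rhox6, Rhox9, Rhox10, Rhox11 or Rhox13. Of these 10 names, 8 were on the array with 1 probe each, out of 55681 non-control probes in all. A further 19 probes carry names of other Rhox genes. No probe is named Rhox2a or Rhox4b, but RefSeq transcripts of Rhox2a are listed for the probes named Rhox2c and Rhox2h, and a transcript of Rhox4b for the probe named Rhox4g, so these genes are read below only through probes shared with their copies.

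Genes of this family are known best from the testis, epididymis, ovary and placenta. They lie in neighbouring blocks, called alpha (Rhox1 to Rhox4, with many tandem copies of Rhox2, Rhox3 and Rhox4), beta (Rhox5 to Rhox9) and gamma (Rhox10 to Rhox13). In embryonic stem cells DNA methylation is known to hold several of them silent, and Rhox5 is known to be active. Dnmt3a and Dnmt3b set new methylation, Dnmt1 copies it to the new strand after replication, and PRDM14 is a nuclear factor of naive stem cells and primordial germ cells that is known to lower the de novo enzymes.

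The samples were mouse embryonic stem cells on 10 single-colour Agilent arrays in 6 groups, each of 1 cell line. All were grown without feeder cells in serum medium with leukaemia inhibitory factor. PRDM14 (line JP-23, 2 arrays) is J1 with a stably expressed Prdm14 gene, and PRDM14_DNMT3B (line JP-23+3b-3, 2 arrays) carries Prdm14 and Dnmt3b1. Dnmt3b_KO is the Dnmt3b-/- line 8bb (2 arrays), Dnmt1_KO the Dnmt1-/- line 36 (1 array), TKO the line 19-1 that lacks Dnmt1, Dnmt3a and Dnmt3b (1 array), and J1 the wild type (2 arrays). The labels do not give the promoters of the introduced genes. Nothing says that replicates are separate cultures, and the spread behind the p-values may therefore be technical.

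The sequences before the gene starts are shown because methylation acts at CG pairs. Each is the 250 bases before a start, 5′ to 3′, from RefSeq on GRCm38.p6, with every CG pair in capitals. Rhox2a and Rhox4b stand for the copies that differed most from J1, and Rhox10 and Rhox13 for the gamma block. Rhox5 stands for a gene bright in J1. Rhox3a stands for itself and Rhox3h, whose window has the same letters, and the windows of the other Rhox3 copies have different letters.
Rhox2a, chrX:37244742-37244991 (plus strand): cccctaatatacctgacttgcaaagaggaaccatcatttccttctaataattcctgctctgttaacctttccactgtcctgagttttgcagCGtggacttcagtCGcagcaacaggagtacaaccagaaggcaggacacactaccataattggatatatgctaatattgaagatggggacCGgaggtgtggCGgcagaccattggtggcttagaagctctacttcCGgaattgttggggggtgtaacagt
Rhox4b, chrX:37432244-37432493 (plus strand): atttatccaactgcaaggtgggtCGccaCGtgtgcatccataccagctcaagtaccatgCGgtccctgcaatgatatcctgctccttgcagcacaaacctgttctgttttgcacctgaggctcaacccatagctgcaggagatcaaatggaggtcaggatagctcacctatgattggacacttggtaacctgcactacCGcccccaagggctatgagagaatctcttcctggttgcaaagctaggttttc
Rhox10, chrX:38066225-38066474 (plus strand): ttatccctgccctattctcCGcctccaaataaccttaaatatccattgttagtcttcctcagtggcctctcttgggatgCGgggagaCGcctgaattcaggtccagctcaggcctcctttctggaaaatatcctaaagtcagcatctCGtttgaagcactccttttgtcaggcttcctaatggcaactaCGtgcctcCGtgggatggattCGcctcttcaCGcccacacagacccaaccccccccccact
Rhox13, chrX:38120590-38120839 (plus strand): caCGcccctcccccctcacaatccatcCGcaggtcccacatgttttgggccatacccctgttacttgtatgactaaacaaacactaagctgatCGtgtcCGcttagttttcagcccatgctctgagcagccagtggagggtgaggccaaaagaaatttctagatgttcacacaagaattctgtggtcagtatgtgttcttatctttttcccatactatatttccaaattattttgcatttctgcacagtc
Rhox5, chrX:37754358-37754607 (plus strand): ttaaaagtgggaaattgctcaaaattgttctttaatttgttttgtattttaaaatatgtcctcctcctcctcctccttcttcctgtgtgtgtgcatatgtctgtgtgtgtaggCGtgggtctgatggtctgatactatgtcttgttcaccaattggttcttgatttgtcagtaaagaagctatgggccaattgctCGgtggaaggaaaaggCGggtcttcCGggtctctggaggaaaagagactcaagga
Rhox3a, chrX:37249669-37249918 (plus strand): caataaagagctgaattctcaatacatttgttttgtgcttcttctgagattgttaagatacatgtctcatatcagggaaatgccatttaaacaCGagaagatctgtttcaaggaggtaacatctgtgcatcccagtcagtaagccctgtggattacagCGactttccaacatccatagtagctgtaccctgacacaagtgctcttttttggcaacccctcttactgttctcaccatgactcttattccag

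These windows held from 2 to 8 CG pairs. Rhox10 had 8, Rhox2a 5, Rhox4b, Rhox5 and Rhox13 4 each, and Rhox3a 2. Among the members not printed, Rhox11 had 5 and Rhox1 had 0. Over all 32851 mouse promoters of the same length the median was 6, and over the 1223 on the X chromosome it was 5. Among the copies, the 7 Rhox2 copies held 3 to 6 (median 5), the 7 Rhox4 copies 4 to 7 (median 6) and the 7 Rhox3 copies 1 to 3 (median 2).

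**Figure D1:**
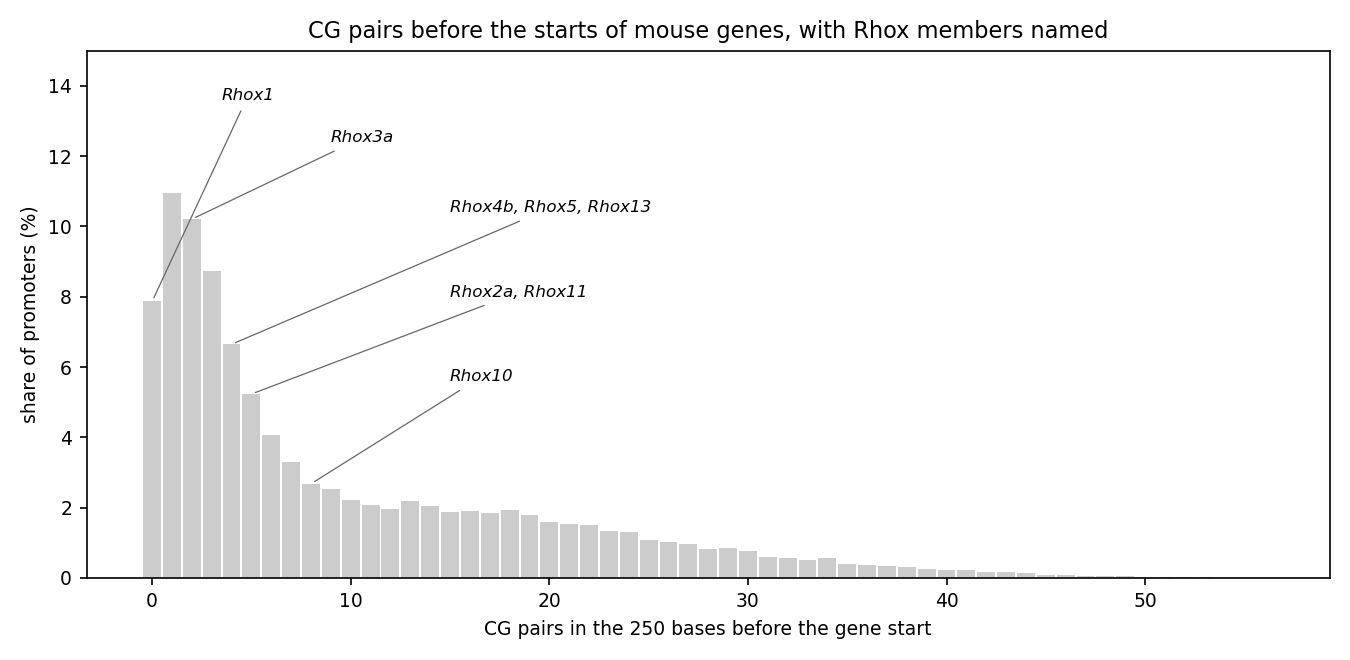
Share of 32851 mouse promoters (vertical axis, percent) by the number of CG pairs in the 250 bases before the start (horizontal axis), with the 8 Rhox members that have an entry named at their count. All 8 members lie between 0 and 8 pairs, against a median of 6 over all promoters.

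Motifs were searched on both strands of the same windows, and a match is given only as letters. The ETS letters CCGGAAGT were present in Rhox2a and in all 7 Rhox2 copies, against 2.88% of all promoters. Copies are near-repeats of each other, so these 7 are not separate cases. The E-box letters CACGTG, which hold a CG pair, were present in Rhox4b and in 5 of 7 Rhox4 copies, against 6.02% of all promoters. The E2F letters TCCCGC (16.9% of all promoters) and the PRDM14 letters GGTCTCTAA (0.24%) were in none of the 8 members' windows.

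Levels below are log2 intensities minus the 75th percentile of the array, so 0 is that percentile, and differences are log2 differences between groups. A gene passed at a limma adjusted p under 0.05 over 23799 genes. Between 50.03% and 56.03% of spots were well above background per array, and the 75th percentile lay between 243.1 and 337.3 intensity units. The targeted genes were read first. Dnmt3b was at 1.66 in Dnmt3b_KO and 1.99 in TKO against 7.59 in J1, and Dnmt1 at -2.68 in Dnmt1_KO and -3.15 in TKO against 1.46 in J1. Dnmt3a was not well above background in TKO, at least 15.8-fold lower than in J1. The Prdm14 probe went against its labels: it averaged -4.17 in the line labelled PRDM14 and -6.39 in the line labelled PRDM14_DNMT3B, where it was not well above background, against 0.01 in J1. Dnmt3b was also lower in the line labelled PRDM14_DNMT3B than in J1, at 4.13 against 7.59. Whether these probes read the introduced transcripts was not tested, so they do not check those 2 labels, and directions drawn from them below are those of the labelled lines.

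All 5 comparisons with J1 use the same 2 J1 arrays. Each of the 2 PRDM14 arrays was the sole array of its slide, and for that line the slide and the genotype cannot be told apart. The median gene lay at -0.14 in Dnmt1_KO and at -0.07 in TKO relative to J1. Scaled on probes above background on all arrays the Dnmt1_KO median moved to 0.01. The share of calls that were higher then moved to 66.9%, against 46.6%, in Dnmt1_KO and to 59.9%, against 48.6%, in TKO. It moved to 65.7%, against 49.1%, for the mean of Dnmt1_KO and TKO against Dnmt3b_KO. In these bulk samples fewer cells with a transcript and less transcript per cell cannot be told apart.

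Of the 8 members with a probe, 7 were tested. The probe of Rhox11, a gamma block gene, stayed under the background limit on all 10 arrays. Against J1, 3 members were higher and 3 lower in the line labelled PRDM14, where 39.7% of all genes passed (21% higher, 18.7% lower). Members in the line labelled PRDM14_DNMT3B were 0 higher and 4 lower (39.1% of all genes passed, 19.7% lower). In Dnmt3b_KO 0 were higher and 5 lower (21% of all genes, 10.2% lower). In Dnmt1_KO 3 were higher and 1 lower (28.2% of all genes, 13.1% higher), and in TKO 2 were higher and 3 lower (28.5% of all genes, 14.7% lower). The members' median difference was 0.59 in the line labelled PRDM14 and 0.59 in Dnmt1_KO, beside -0.03 and -0.14 over all genes. It was -1.29 in Dnmt3b_KO and -0.09 in TKO, beside -0.10 and -0.07 over all genes. For the line labelled PRDM14_DNMT3B it was -0.56, or -0.39 with Rhox3a at its bound, beside -0.06.

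**Figure D2:**
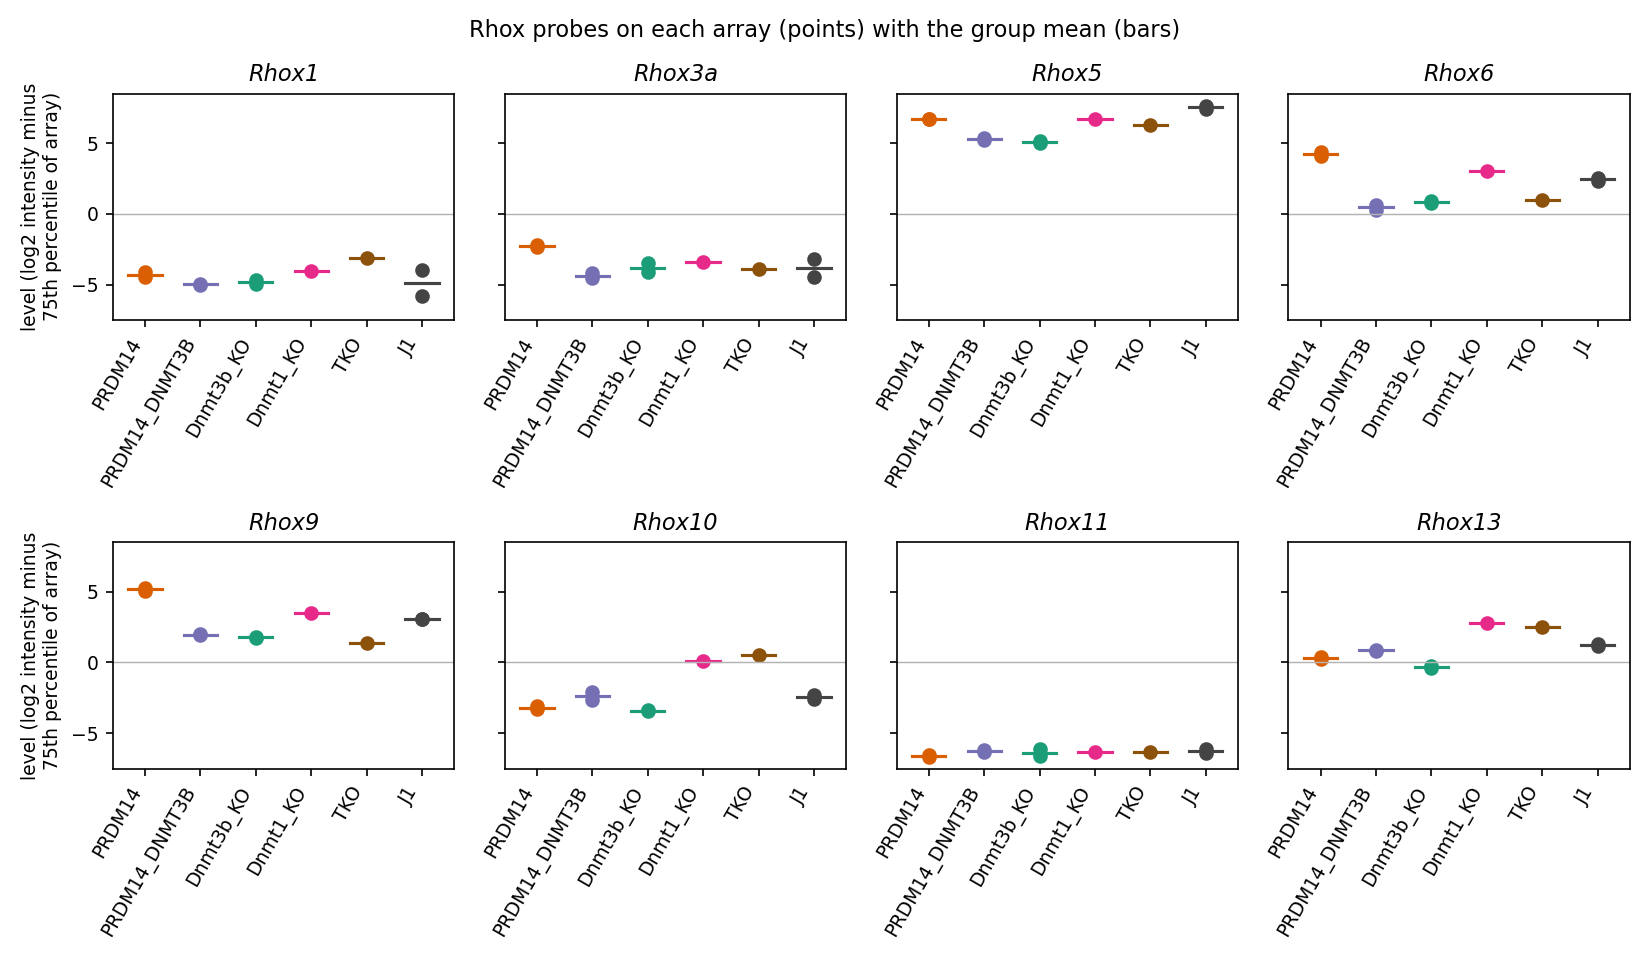
Level of the 8 Rhox probes (vertical axis, log2 intensity minus the 75th percentile of the array) on each of the 10 arrays, by group (horizontal axis), with the group mean as a bar. Rhox6 and Rhox9 are highest in the line labelled PRDM14, Rhox10 and Rhox13 in Dnmt1_KO and TKO, Rhox5 in J1, and Rhox11 lies between -6.71 and -6.09 on every array.

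The alpha block was read through Rhox1 and Rhox3a and through the shared probes of the Rhox2 and Rhox4 copies. In lines without Dnmt1 these shared probes showed the largest differences of the cluster. The probe named Rhox2c (mm9 chrX:34868719-34868778), whose listed transcripts are those of Rhox2c, Rhox2b, Rhox2e and Rhox2a, was at 2.02 in Dnmt1_KO and 2.82 in TKO, against -3.90 and -3.75 in J1. It was thus 57.5-fold higher in Dnmt1_KO than in J1 (log2 difference 5.85 ± 0.27 SE, limma adjusted p = 0.000245) and higher by 6.65 ± 0.27 in TKO (limma adjusted p = 0.000245). No array of the other lines came near these levels: it was at -1.35 and -1.45 in the line labelled PRDM14, and at -6.25 and -5.76, not well above background, in Dnmt3b_KO. The J1 arrays read only 16.6 and 18 intensity units for this probe. Differences of such dim probes moved most with background correction, so the size of the fold depends on it.

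The probe named Rhox2h (mm9 chrX:35083570-35083629), which also lists a Rhox2a transcript, gave the same order. It was at 2.59 in Dnmt1_KO and 3.26 in TKO, against -2.59 and -2.99 in J1, a rise by 5.38 ± 0.21 and 6.06 ± 0.21 (limma adjusted p = 0.000186 and 0.000206). A second probe of Rhox2h was at -0.90 in Dnmt1_KO and -0.22 in TKO, against -6.21 and -4.94, not well above background, in J1.

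The probe named Rhox4g (mm9 chrX:35061172-35061231), which lists Rhox4b together with Rhox4g, Rhox4e and Rhox4f, was at 1.19 in Dnmt1_KO and 1.48 in TKO, against -3.76 and -4.29 in J1. Rhox4b, also called Ehox, is known from the differentiation of mouse stem cells. The difference was 5.22 ± 0.60 in Dnmt1_KO and 5.50 ± 0.60 in TKO (limma adjusted p = 0.00308 and 0.0023), and 1 of the 2 J1 arrays was well above background. In all, the 6 probes named Rhox2c, Rhox2e, Rhox2h, Rhox4a, Rhox4e and Rhox4g rose in Dnmt1_KO by 4.78 to 5.85 and in TKO by 5.01 to 6.65, leaving out Rhox4e. Like Rhox4g, the probes named Rhox2e and Rhox4a were well above background on 1 of the 2 J1 arrays. Their differences thus rest in part on a J1 value that was not well above background. Rhox4e was not well above background in J1, so its difference has only a lower bound. It was at least 19.7-fold higher in Dnmt1_KO and at least 21.5-fold higher in TKO (limma adjusted p = 0.00328 and 0.00269). Listed transcripts of the probe named Rhox2c overlap with those of the probes named Rhox2e and Rhox2h. Those of the probes named Rhox4e and Rhox4g overlap too, so the 6 are not all separate readings.

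The same 6 probes were also higher in the line labelled PRDM14, by less. Rhox2c rose there by 2.43 ± 0.22 over J1 (limma adjusted p = 0.000559) and the probe named Rhox4g by 2.13 ± 0.49 (limma adjusted p = 0.0177). With normexp background correction these differences were 0.95 and 0.63. The probes named Rhox2c, Rhox2e and Rhox2h were higher than in J1 also in the line labelled PRDM14_DNMT3B, by 1.81, 1.85 and 1.57 (limma adjusted p = 0.00168, 0.0217 and 0.00121), while the Rhox4 probes did not pass. In Dnmt3b_KO the direction was opposite: the probes named Rhox2c and Rhox2h fell, by at least 1.38-fold and 2.60-fold (limma adjusted p = 0.00273 and 0.00419). Those named Rhox4a and Rhox4g also fell (limma adjusted p = 0.0155 and 0.0451), by 1.69-fold and 1.20-fold with Dnmt3b_KO at the background limit. Only 1 of the 2 J1 arrays was well above background for Rhox4a and for Rhox4g, so these 2 folds are not lower bounds. None of the 4 probes was well above background in Dnmt3b_KO.

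Of the 10 other Rhox genes tested, which include these copies, 7 were higher and 0 lower in the line labelled PRDM14 than in J1, where 39.7% of all genes passed. The seventh beside the 6 probes is Rhox8, whose probes differed in sign there (0.61 and -0.48). The counts were 6 and 0 in Dnmt1_KO (28.2% of all genes), 6 and 1 (Rhox8) in TKO (28.5%), 3 and 0 in the line labelled PRDM14_DNMT3B (39.1%), and 0 and 4 in Dnmt3b_KO (21%). Their median difference was 4.59 in Dnmt1_KO and 4.77 in TKO, or 4.54 and 4.72 with dim genes at their bound.

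Rhox3a (mm9 chrX:34798883-34798942), whose probe also lists a Rhox3h transcript, did not follow the Rhox2 and Rhox4 probes. It was at -2.34 and -2.20 in the line labelled PRDM14, against -4.43 and -3.15 in J1, and at -3.41 in Dnmt1_KO and -3.89 in TKO. The 2 PRDM14 arrays lay above all others, and the difference from J1 was 1.52 ± 0.44 (limma adjusted p = 0.0393). That call was lost in 10 of 19 other settings, among them without J1 replicate 1 (0.88, limma adjusted p = 0.0882). Rhox3a was at -4.15 and -4.55 in the line labelled PRDM14_DNMT3B, not well above background, at least 3.49-fold lower than in the line labelled PRDM14 (limma adjusted p = 0.0258). That call was lost in 5 of 19 other settings, which include leaving out any 1 of the 4 arrays of these 2 lines (limma adjusted p from 0.0727 to 0.12), and the fitted difference of -2.08 was -0.64 with normexp background correction.

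Rhox1 (mm9 chrX:34753955-34754014) was well above background on 3 of 10 arrays and passed in 0 of the 8 comparisons by limma. Before adjustment, limma's p was under 0.05 for TKO against J1 alone. Its J1 arrays stood at -3.98 and -5.78, wider apart than those of any other tested member. Rhox1 was tested only because it was well above background on the 1 TKO array, the group where it was highest. Without J1 replicate 1 the fitted difference of TKO from J1 was 2.68, against 1.77 with it (limma adjusted p = 0.108). J1 replicate 2, the array then left, was at 4.41 intensity units, and 1 of the 2 J1 arrays was well above background. The value of 2.68 is therefore not a measured difference.

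**Figure D3:**
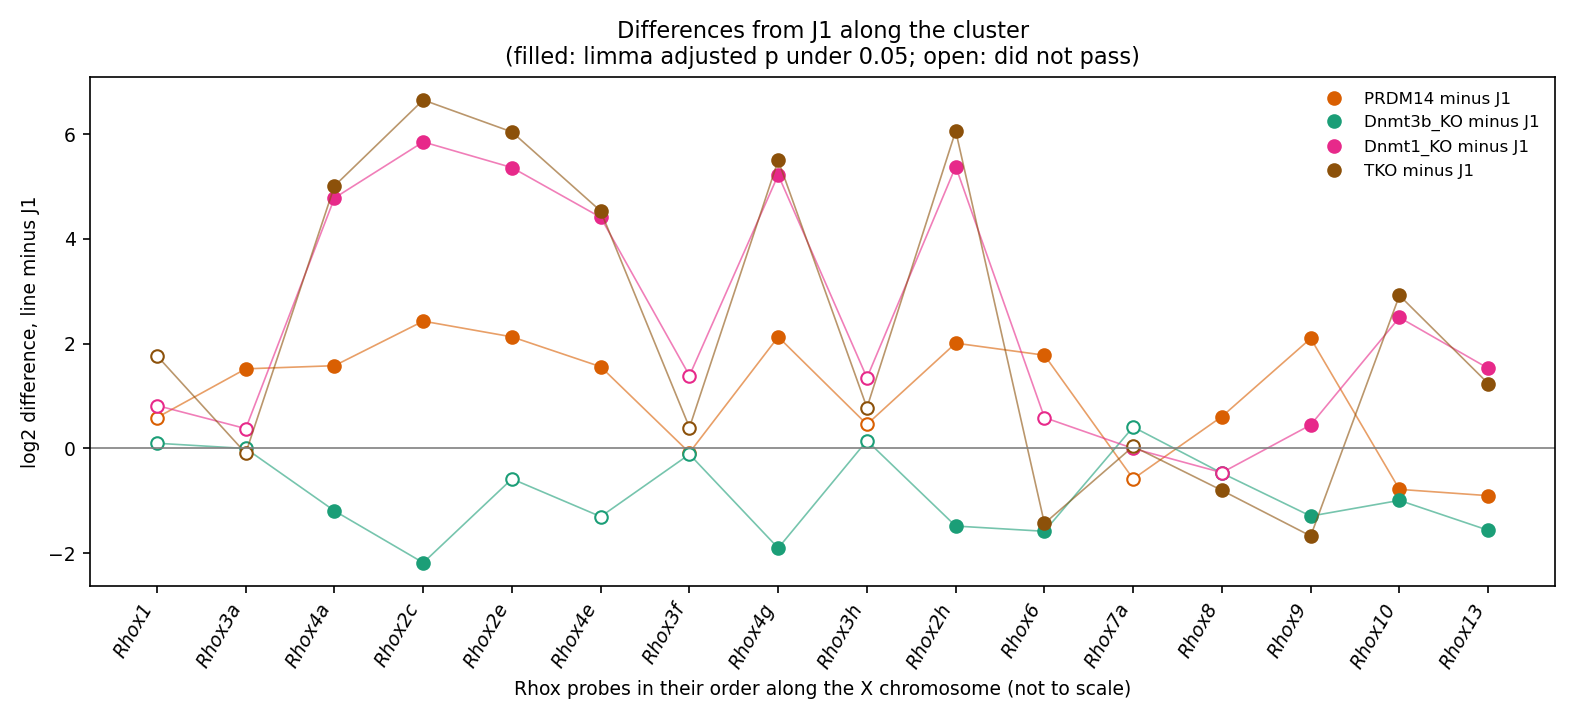
Log2 difference from J1 (vertical axis) of the 16 tested Rhox genes with a mapped probe, in their order along the X chromosome (horizontal axis, not to scale), in the line labelled PRDM14, Dnmt3b_KO, Dnmt1_KO and TKO. Filled points passed and open points did not. The Rhox2 and Rhox4 probes rise by 4.78 to 6.65 in Dnmt1_KO and TKO, except Rhox4e, whose points there are fitted against a J1 level under background and have only lower bounds, while the Rhox3 probes between them did not pass in those lines. Rhox2e, Rhox4a and Rhox4g were well above background on 1 of the 2 J1 arrays.

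In the beta block, Rhox5, Rhox6 and Rhox9 were well above background on all 10 arrays. Rhox5, also called Pem, acts in Sertoli cells of the testis and is a marker of stem cells and early embryos. It was at 6.68 on both arrays of the line labelled PRDM14, 5.38 and 5.20 in the line labelled PRDM14_DNMT3B, 5.16 and 4.99 in Dnmt3b_KO, 6.69 in Dnmt1_KO and 6.30 in TKO, against 7.62 and 7.41 in J1. Every array of the 5 engineered lines lay below both J1 arrays. Its probe carries no mapped position.

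Rhox5 fell most in Dnmt3b_KO, 5.41-fold or -2.43 ± 0.12 on the log2 scale (limma adjusted p = 0.000701). It fell by 2.22 ± 0.12 in the line labelled PRDM14_DNMT3B, by 1.21 ± 0.15 in TKO, by 0.83 ± 0.12 in the line labelled PRDM14 and by 0.82 ± 0.15 in Dnmt1_KO (limma adjusted p = 0.00011, 0.00326, 0.00316 and 0.0125). Down the order of levels, J1 differed from Dnmt1_KO and TKO from the line labelled PRDM14_DNMT3B (limma adjusted p = 0.0125 and 0.00469). The steps from Dnmt1_KO to the line labelled PRDM14, from there to TKO, and from the line labelled PRDM14_DNMT3B to Dnmt3b_KO did not pass (limma adjusted p = 0.947, 0.0984 and 0.255). Of 6 factors listed as regulators of the Rhox5 promoters, 1 rose and 3 fell in the line labelled PRDM14 (39.7% of all genes passed), 0 rose and 1 fell in Dnmt1_KO (28.2%), and 0 of the 6 passed limma in Dnmt3b_KO or TKO, where 2 and 1 had an unadjusted p under 0.05 (21% and 28.5% of all genes passed).

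Rhox6 and Rhox9, also called Psx1 and Psx2, are known from the placenta and from germ cells. Rhox6 (mm9 chrX:35182945-35183004) was at 4.36 and 4.07 in the line labelled PRDM14, 0.61 and 0.31 in the line labelled PRDM14_DNMT3B, 0.93 and 0.77 in Dnmt3b_KO, 3.03 in Dnmt1_KO and 1.00 in TKO, against 2.53 and 2.34 in J1. Rhox9 (mm9 chrX:35254147-35254206) was at 5.25 and 5.07 in the line labelled PRDM14, 2.01 and 1.92 in the line labelled PRDM14_DNMT3B, 1.82 and 1.71 in Dnmt3b_KO, 3.51 in Dnmt1_KO and 1.39 in TKO, against 3.06 on both J1 arrays. For both genes the arrays fall into the same 3 sets without overlap: PRDM14 on top, Dnmt1_KO and J1 between, and the line labelled PRDM14_DNMT3B, Dnmt3b_KO and TKO at the bottom.

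Rhox9 was 4.29-fold and Rhox6 3.43-fold higher in the line labelled PRDM14 than in J1 (log2 differences 2.10 ± 0.10 and 1.78 ± 0.16, limma adjusted p = 6.94e-05 and 0.000543). Both were lower in the line labelled PRDM14_DNMT3B than in the line labelled PRDM14, by 3.20 ± 0.10 and 3.75 ± 0.16 (limma adjusted p = 0.000392 and 0.000594), and also lower than in J1, by 1.09 ± 0.10 and 1.97 ± 0.16 (limma adjusted p = 0.000541 and 0.00039). In that comparison of the 2 labelled lines 1 member was higher and 4 lower, where 20.8% of all genes passed (9.79% higher, 11% lower). Rhox5 was among the 4, lower by 1.39 ± 0.12 (limma adjusted p = 0.0017), and Rhox3a was the other.

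The 2 lines without Dnmt1 differed from each other in these genes. Rhox9 was higher in Dnmt1_KO than in TKO by 2.12 ± 0.14 and Rhox6 by 2.02 ± 0.22 (limma adjusted p = 0.00204 and 0.00664, 1 array each). Against J1, Rhox9 fell by 1.67 ± 0.12 and Rhox6 by 1.43 ± 0.19 in TKO (limma adjusted p = 0.000715 and 0.0048). In Dnmt1_KO Rhox9 was higher by 0.45 ± 0.12 (limma adjusted p = 0.0382), a call lost in 10 of 20 settings, and Rhox6 differed by 0.59 ± 0.19 without passing (limma adjusted p = 0.072), though it passed in 6 of 20 settings. At the bottom of the order, TKO, Dnmt3b_KO and the line labelled PRDM14_DNMT3B did not pass against their neighbours for either gene (limma adjusted p from 0.0894 to 0.651). The ends of that set did differ for Rhox9, which was higher in the line labelled PRDM14_DNMT3B than in TKO by 0.57 ± 0.12 (limma adjusted p = 0.0168).

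Of the trophoblast markers, 9 of 11 were tested. Their summed level (75th percentile = 1 on the linear scale) was 37.8 to 39.3 in the line labelled PRDM14, 31.7 to 32.7 in the line labelled PRDM14_DNMT3B, 228 to 241 in Dnmt3b_KO, 266 in Dnmt1_KO and 57.2 in TKO, against 146 to 154 in J1. Plac1 was not well above background in J1 and both PRDM14-labelled lines, and Hand1 was not in TKO. Without Krt18, the largest of them, the sum was 32.4 to 34.3 in the line labelled PRDM14, against 60.6 to 62 in J1. In the line labelled PRDM14, where Rhox6 and Rhox9 were highest, 2 of the 9 markers rose and 6 fell, leaving out Plac1 (39.7% of all genes passed). In the line labelled PRDM14_DNMT3B 1 rose and 6 fell (39.1%), and in Dnmt3b_KO 3 rose and 2 fell (21%). In Dnmt1_KO 5 rose and 2 fell (28.2%), and in TKO 0 rose and 7 fell (28.5%). Plac1 could pass the background filter only through Dnmt3b_KO, Dnmt1_KO or TKO, and it was highest in Dnmt1_KO, at -0.68. A rise of Plac1 there may thus have been set in advance and is no separate result. The part of these markers in the Rhox levels was not tested.

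**Figure D4:**
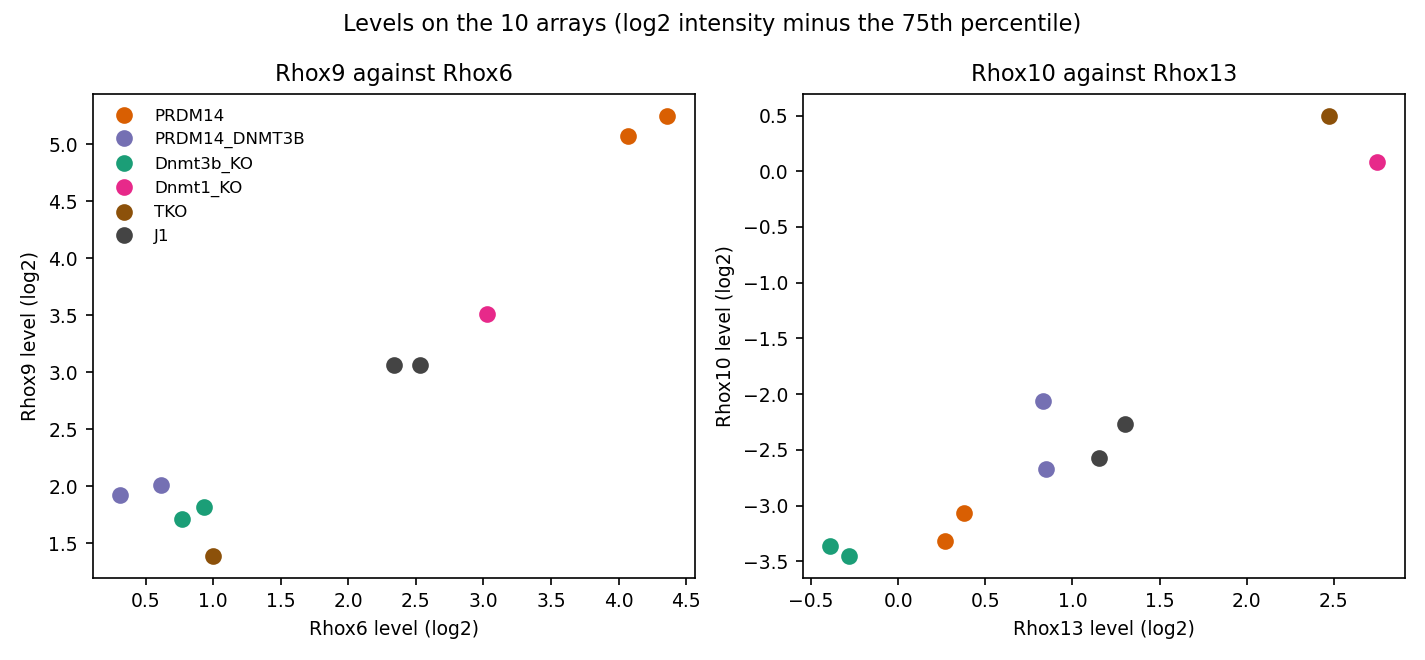
Levels of Rhox9 against Rhox6 (left) and of Rhox10 against Rhox13 (right) on the 10 arrays, in log2 units, coloured by group. In the left plot the 2 PRDM14 arrays stand at the top, and in the right plot Dnmt1_KO and TKO do.

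In the gamma block, Rhox10, known from the mouse testis as a factor for spermatogonial stem cells, was lifted in both lines without Dnmt1. Its probe (mm9 chrX:35424740-35424799) was at 0.08 in Dnmt1_KO and 0.50 in TKO, against -2.27 and -2.57 in J1. It was at -3.07 and -3.32 in the line labelled PRDM14, at -2.06 and -2.67 in the line labelled PRDM14_DNMT3B, and at -3.45 and -3.36 in Dnmt3b_KO. The arrays of Dnmt1_KO and TKO lay above the other 8.

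The difference from J1 was 2.50 ± 0.28 in Dnmt1_KO, 5.66-fold, and 2.92 ± 0.28 in TKO (limma adjusted p = 0.00282 and 0.00157). With normexp background correction these values were 1.56 and 1.94. Dnmt1_KO and TKO did not pass against each other (limma adjusted p = 0.519). Rhox10 was lower than in J1 by 0.78 ± 0.23 in the line labelled PRDM14 and by 0.99 ± 0.23 in Dnmt3b_KO (limma adjusted p = 0.0398 and 0.0325). Both calls were lost without either J1 array (limma adjusted p from 0.0627 to 0.155). Between the 2 labelled lines it was higher in PRDM14_DNMT3B by 0.83 ± 0.23 (limma adjusted p = 0.0526, and 0.0295 with the replicate block).

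Rhox13, a germ cell gene of the fetal and postnatal testis, was also highest in Dnmt1_KO and TKO. Its probe (mm9 chrX:35474985-35476295, 60 bases placed across a gap) was at 2.75 in Dnmt1_KO and 2.47 in TKO, against 1.30 and 1.15 in J1. It was at 0.38 and 0.27 in the line labelled PRDM14, 0.83 and 0.85 in the line labelled PRDM14_DNMT3B, and -0.28 and -0.39 in Dnmt3b_KO. No 2 groups overlap in these values.

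Rhox13 rose by 1.53 ± 0.12 in Dnmt1_KO and by 1.24 ± 0.12 in TKO over J1 (limma adjusted p = 0.000912 and 0.00154). It fell by 1.56 ± 0.10 in Dnmt3b_KO and by 0.90 ± 0.10 in the line labelled PRDM14 (limma adjusted p = 0.000921 and 0.00101). The line labelled PRDM14_DNMT3B had Rhox13 lower than J1 by 0.39 ± 0.10 and higher than the line labelled PRDM14 by 0.51 ± 0.10 (limma adjusted p = 0.0236 and 0.0175), and each of these 2 calls was lost when either PRDM14_DNMT3B array was left out. All steps in its order passed other than that from Dnmt1_KO to TKO (limma adjusted p = 0.29).

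**Figure D5:**
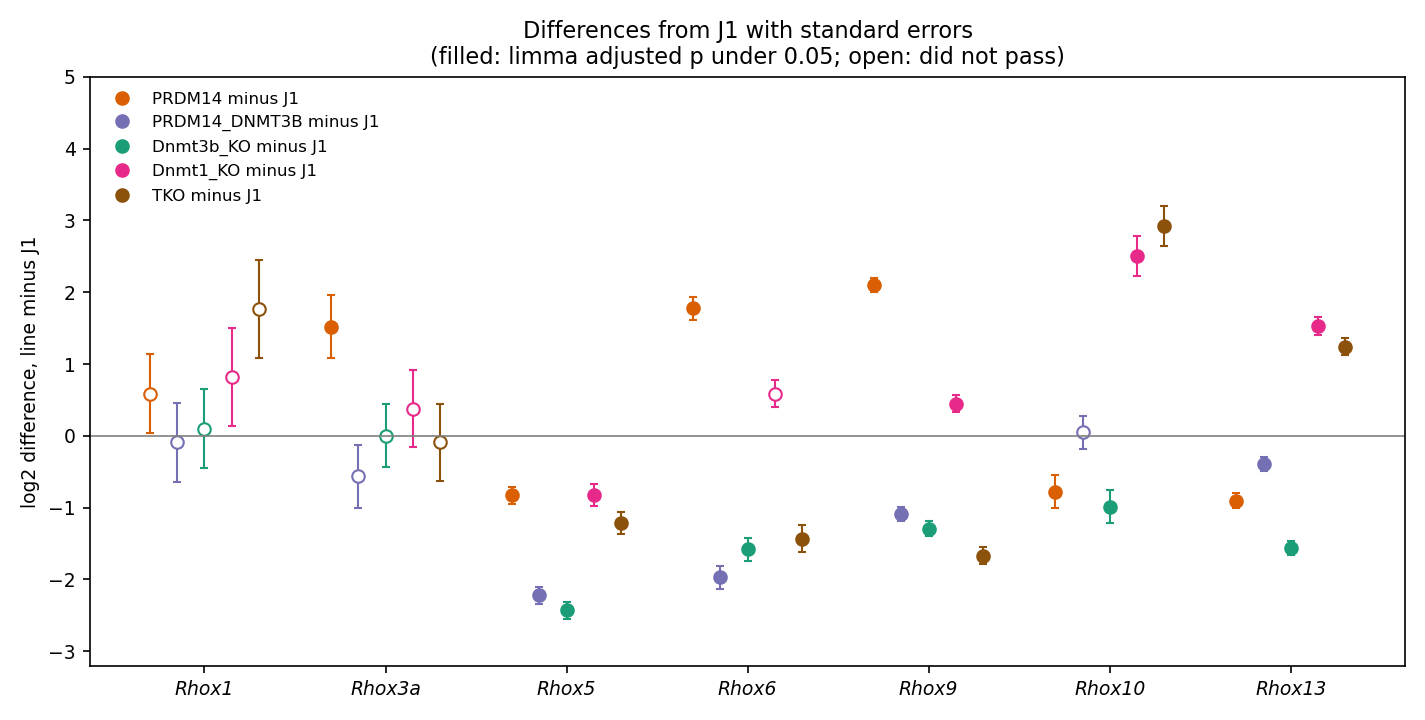
Log2 difference from J1 (vertical axis) of the 7 tested members (horizontal axis) in the 5 engineered lines, with standard errors. Filled points passed and open points did not. Rhox5 lies below 0 in all 5 lines, and Rhox10 and Rhox13 lie above 0 beyond their errors only in Dnmt1_KO and TKO.

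Dnmt3b_KO served as another line to set the rest against. With Dnmt1_KO and TKO averaged, 5 members were higher and 0 lower than in Dnmt3b_KO, where 22.5% of all genes passed (11% higher). Rhox10 was higher by 3.70 ± 0.23 (2.25 with normexp background correction) and Rhox13 by 2.94 ± 0.10 (limma adjusted p = 0.000477 and 8.34e-05), beside 1.42 for Rhox5, 1.17 for Rhox6 and 0.69 for Rhox9. The last 2 averages join unlike lines: TKO alone did not pass against Dnmt3b_KO for Rhox6 (1.00 in TKO, against 0.85 in Dnmt3b_KO, limma adjusted p = 0.651) or Rhox9 (1.39 in TKO, against 1.76, limma adjusted p = 0.0894). The line labelled PRDM14 had 5 members higher and 0 lower than Dnmt3b_KO, where 37.4% of all genes passed (21.7% higher). One of the 5 is Rhox3a, by 1.52 (limma adjusted p = 0.0417), a call lost in 11 of 19 other settings, with values from 0.56 to 1.82. Rhox9 and Rhox6 led there, with 3.39 ± 0.10 and 3.36 ± 0.16 (limma adjusted p = 2.05e-05 and 7.22e-05).

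Within slide 1, where Dnmt1_KO, TKO and 1 array each of J1, the line labelled PRDM14_DNMT3B and Dnmt3b_KO were hybridised, Rhox10 was higher than in J1 by 2.35 in Dnmt1_KO and by 2.77 in TKO, and Rhox13 by 1.46 and 1.17. Rhox5 in Dnmt3b_KO differed from J1 by -2.45 within slide 1 and by -2.41 within slide 2. Rhox5 differed from J1 in the line labelled PRDM14_DNMT3B by -2.24 within slide 1 and -2.21 within slide 2, and Rhox6 by -1.92 and -2.02. On slide 1 Dnmt1_KO and TKO were scanned at another time than J1. The same holds on slide 2 for Dnmt3b_KO and the line labelled PRDM14_DNMT3B.

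Genes that flank the cluster gave other counts than the Rhox2 and Rhox4 probes. Of 20 listed neighbours 14 were tested, and 1 rose and 4 fell in Dnmt1_KO, and 1 rose and 5 fell in TKO (28.2% and 28.5% of all genes passed). Septin6, a cytoskeletal GTPase, rose by 0.68 in Dnmt1_KO and by 0.69 in TKO (limma adjusted p = 0.0095 and 0.00833). In the line labelled PRDM14 (39.7% of all genes passed), 1 neighbour was higher and 7 were lower, led by Zbtb33 (encoding the methyl-CG binding protein Kaiso) with -1.42 and Mcts1 with -1.27 (limma adjusted p = 0.000761 and 0.000885). In Dnmt3b_KO 2 rose and 0 fell (21% of all genes), and in the line labelled PRDM14_DNMT3B 1 rose and 6 fell (39.1%).

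Other X-linked genes of the testis were set beside the cluster. Of 18 tested among 23 listed, 15 rose and 0 fell in Dnmt1_KO, and 14 rose and 0 fell in TKO, leaving out Usp26, which was not well above background in TKO or J1 (28.2% and 28.5% of all genes passed). Over all 18 the median differences were 3.52 and 3.51, or 2.26 and 2.92 with dim genes at their bound. At a bound were 12 of the 18 in Dnmt1_KO and 11 in TKO. A gene was tested if well above background on all arrays of 1 group, which for Dnmt1_KO or TKO is 1 array. For genes that entered only through these lines a rise was set in advance, and the counts are no separate result for them. The largest in Dnmt1_KO were Xlr4a and Xlr4b, at least 55.2-fold and 64.1-fold higher than in J1, and Xlr3b, higher by 7.53 (limma adjusted p = 0.00172, 0.0111 and 0.000182). In the line labelled PRDM14 3 rose and 0 fell, with a median of 0.00 (39.7% of all genes passed). There 10 of the 18 were not well above background in that line or in J1. The line labelled PRDM14_DNMT3B likewise had 3 and 0 (39.1%). Dnmt3b_KO had 1 and 0 (21%), leaving out Mageb4, which was not well above background there or in J1. Of 17 genes of the silencing machinery 4 rose and 5 fell in the line labelled PRDM14, 1 and 4 in Dnmt1_KO, and 3 and 4 in TKO, where 39.7%, 28.2% and 28.5% of all genes passed. The 17 include the targeted genes Dnmt1, Dnmt3a, Dnmt3b and Prdm14. Falls of deleted genes in Dnmt1_KO and TKO were thus set by the genotype.

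Markers of stem cells and of other cell types were read in the same arrays. All 8 stem cell markers were well above background in every group. Their summed level was 622 to 634 in the line labelled PRDM14, 563 to 572 in the line labelled PRDM14_DNMT3B, 457 to 465 in Dnmt3b_KO, 287 in Dnmt1_KO and 439 in TKO, against 416 to 430 in J1. In Dnmt1_KO 0 of the 8 rose and 6 fell (28.2% of all genes passed), and in TKO 1 rose and 1 fell (28.5%). In the line labelled PRDM14 4 rose and 0 fell (39.7%). The line labelled PRDM14_DNMT3B had 4 and 1 (39.1%), and Dnmt3b_KO 3 and 0 (21%). Of 11 primitive endoderm markers, 4 rose and 2 fell in Dnmt1_KO, and 9 rose and 0 fell in TKO (28.2% and 28.5% of all genes passed). Pdgfra, not well above background outside TKO, is left out of the Dnmt1_KO count. Sox17 was not well above background outside Dnmt1_KO and TKO. Both genes were thus tested only through these lines of 1 array each. A rise of Pdgfra in TKO, or of Sox17 in Dnmt1_KO or TKO, was therefore set in advance and is no separate result. Sparc made up 97.5% of the list's summed level in Dnmt1_KO and 88.8% in TKO, against 94.3% to 95% in J1. Without Sparc the sum was 8.73 in Dnmt1_KO and 28.1 in TKO, against 11 to 11.3 in J1. Of 8 fibroblast markers tested 5 rose in Dnmt3b_KO, 4 in Dnmt1_KO and 5 in TKO, and 0 fell in these lines (21%, 28.2% and 28.5% of all genes passed). In the line labelled PRDM14 2 rose and 5 fell (39.7%), and in the line labelled PRDM14_DNMT3B 2 rose and 4 fell (39.1%). The summed fibroblast level without Vim, the largest, was 17.1 to 17.5 in Dnmt3b_KO, 11 in Dnmt1_KO and 13 in TKO, against 4.79 to 5.25 in J1. Of 8 Sertoli and germ cell markers tested, 4 rose and 1 fell in Dnmt1_KO, and 3 rose and 2 fell in TKO (28.2% and 28.5% of all genes passed). In Dnmt3b_KO 1 rose and 4 fell (21%). In the lines labelled PRDM14 and PRDM14_DNMT3B 2 rose and 3 fell in each (39.7% and 39.1%). The summed level of these markers without Clu, the largest, was 12.9 in Dnmt1_KO and 15 in TKO, against 11.1 to 12.3 in J1. The part of these markers in the Rhox levels was not tested.

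Genes with patterns most like a member were sought by Pearson's r over the 10 arrays among 4429 genes outside the cluster whose group means spanned at least 2 log2 units. Arrays of a line share that line, so r is given as a description. Nearest to Rhox6 were Pramel6 (r = 0.962) and Oc90 (r = 0.947), and nearest to Rhox9 were Mettl7b (r = 0.959) and Pramel6 (r = 0.935). Nearest to Rhox10 were 0610009K14Rik (r = 0.977) and Nlrp4c (r = 0.969), and to Rhox13 Rec114 (r = 0.966) and Gpr157 (r = 0.945). Rhox5 had Il4i1 (r = 0.907) as its nearest gene. Among the members, Rhox6 and Rhox9 had an r of 0.97 and Rhox10 and Rhox13 an r of 0.94.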

How the data were processed

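RNA was amplified and Cy3-labelled, per the labels' protocols. The deposited intensity values came from Agilent Feature Extraction 10.7.3.1, per the submitters' processing notes, and are not normalized between arrays. Those notes also name limma without a version. The deposited value table holds log2 values, with a median of 4.243 on each array and within 0.246 of quantile-normalized log2 intensities. It is not centred per gene, its exact scaling is unknown, and it served as an alternative.

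Control and outlier spots were dropped, repeat spots averaged, and each array's 75th percentile subtracted on the log2 scale. Probes had to be well above background on all arrays of 1 group or more (33100 probes), and each gene took its probe of highest mean. A single fit with limma 3.58.1 (R 4.3.3, version 1.17.8 of data.table) covered 23799 genes and all 10 arrays without covariates (4 residual degrees of freedom, prior 1.728), with Benjamini-Hochberg adjustment. Dnmt1_KO and TKO, of 1 array each, borrow the spread of the other lines. In a fold written "at least", each array of the dim group took the probe's own signal or the lowest one well above background, whichever was higher. The fit was tested on simulated data. The number of arrays limits the precision.

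Same-numbered arrays deviated together in all 6 pairs of lines with 2 arrays (r from 0.26 to 0.507 over 18237 genes), and those of 3 lines share a slide, so the replicate number as a block was an alternative. RefSeq (GRCm38.p6) matched 20869 of 22232 accessions, changed 2269 symbols, and gave the promoters. Probe coordinates are mm9, per the file headers, and exon positions were not determined. Named are all members with their probes, up to 3 genes of the largest change past the threshold per list, and the genes of highest r to a member. Marker sums without their largest gene were added after the values were seen. Members, lists and alternatives were chosen with earlier results of these data known.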

Additional observations from a re-analysis of the deposited data

How the results depend on the processing

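The 8 comparisons were repeated under 21 settings besides the one reported. Of the 56 differences of members, 39 passed, all 39 kept their direction in every setting in which they were run, and 24 also kept their call. Of the 17 that did not pass, 10 passed in some setting. The number of members that passed in the line labelled PRDM14_DNMT3B against that labelled PRDM14 was 5 and dropped to 3 without a filter on dim probes, which tests more genes. It ranged from 3 to 6 when 1 array was left out, with 3 without PRDM14 replicate 1, PRDM14 replicate 2 or PRDM14_DNMT3B replicate 1. With only the arrays of the groups compared, which leaves fewer arrays to estimate the spread, 1 member passed in Dnmt1_KO against J1 in place of 4, 2 in TKO against J1 in place of 5, and 3 for the mean of both against Dnmt3b_KO in place of 5. The difference of Rhox1 between the line labelled PRDM14_DNMT3B and J1, -0.09, ranged from -0.99 to 0.81 when 1 array was left out. It was 0.81 without J1 replicate 1 and -0.99 without J1 replicate 2. The J1 array kept was then at -5.78 and -3.98, against a mean of -4.97, not well above background, in the other line. The sign thus followed the J1 array kept, and neither value is a measured difference. Why the J1 arrays differ was not tested. With the replicate block, Rhox10 passed between the 2 labelled lines (limma adjusted p = 0.0295), and no other call of a member changed.

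Over all genes, dropping the filter gave 2995 calls in place of 4991 in Dnmt3b_KO, 4081 in place of 6703 in Dnmt1_KO, 2993 in place of 4948 between the labelled lines, and 3392 in place of 5347 for Dnmt1_KO and TKO against Dnmt3b_KO. With only the arrays compared these were 1860 in Dnmt3b_KO, 944 in Dnmt1_KO, 1111 in place of 6791 in TKO, and 965 for the mean. With the slide as a random block they were 8451 in Dnmt3b_KO and 10093 in Dnmt1_KO. With 1 array left out, the lowest counts were 1908 between the labelled lines, 2451 in Dnmt3b_KO, 2677 for the mean, and 5736 in place of 8889 for the line labelled PRDM14 against Dnmt3b_KO. Probes near background, among them those of Rhox1, Rhox3a and the Rhox2 and Rhox4 copies in J1, have differences that moved most with background correction. With 1 array each, Dnmt1_KO and TKO have no spread of their own.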

Other observations

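Most remaining Rhox names on the array were dim or did not pass. The probes named Rhox3b, Rhox3-ps, Rhox3g-ps and Rhox12 stayed under the background limit on all 10 arrays. Rhox3f, Rhox3h and Rhox7a did not pass in Dnmt1_KO, where Rhox3f differed from J1 by 1.39 and Rhox3h by 1.35. Rhox8, a gene of the beta block, was read by a pair of probes that moved apart. The brighter one was at 5.61 and 6.05 in the line labelled PRDM14, against 5.16 and 5.28 in J1 (difference 0.61, limma adjusted p = 0.0396), and the dimmer one was at -1.55 and -1.96 in that line, against -1.02 and -1.53 in J1 (difference -0.48, limma adjusted p = 0.241 when each probe was tested on its own). The direction of Rhox8 in that line is therefore not settled by these probes.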
